A study of Mus musculus with 8 samples.

Results

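The potassium channel genes of the mouse were followed in testis RNA of Vrk1 mutant and wild-type mice. They were taken as every array probe, other than control spots, whose gene name begins with Kcn followed by a subfamily letter and a number. This rule found 123 probes for 84 genes, out of 41174 distinct probes and 27962 gene names on the array, and used no signal value. Of these genes, 51 had 1 probe, 27 had 2 and 6 had 3. Kcnq1ot1, a noncoding RNA of the Kcnq1 locus, also matched the name pattern and was kept apart, which left 83 channel genes.

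The series compared 4 arrays of Vrk1 mutant testis, labelled VRK1-/-, with 4 arrays of wild-type testis, labelled VRK1+/+. Each array carried Cy3-labelled cRNA from whole testicular cells of males, and the replicates of a genotype were described as independent biological replicates. The sources used here name no mouse strain, age or kind of mutant allele, nor whether replicates came from single or pooled animals. VRK1 is a nuclear serine-threonine kinase that acts on chromatin proteins and on the cell cycle.

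Potassium channels let potassium ions cross a membrane down their gradient and so set the resting voltage of cells. Voltage-gated, inwardly rectifying, tandem-pore-domain and ion-activated pore subunits assemble into the channel itself, and auxiliary subunits modify its gating or its delivery to the membrane. Within the testis, sperm membrane potential depends on the sperm-specific channel encoded by Kcnu1 with its partner Lrrc52, while many other Kcn genes are best known from nerve, muscle and epithelium.

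Values below are log2 signals divided by the 75th percentile of all non-control signals on that array, so 0 is a spot at that percentile. Signals under a common floor were set to it, at -6.12 on this scale. A probe was tested when 4 or more of the 8 arrays showed it well above background, as 92 of the 123 probes and 71 of the 84 genes did. Each gene was counted by its tested probe with the highest mean signal, and a difference is mutant minus wild type. Adjusted p-values are from limma with Benjamini-Hochberg adjustment over all 33717 tested probes, and "rose" or "fell" is written at an adjusted p under 0.05. Because probes differ in binding, differences in amount are read between arrays for the same probe and not between probes. Mean signals served to choose the probe of a gene and to sort probes from dim to bright.

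Both Vrk1 probes were lower in the mutant, at -2.26 ± 0.15 and -2.06 ± 0.12 (log2 difference ± SE, adjusted p = 1.65e-04 and 1.24e-04, limma, n = 4 each). Each genotype lay on its own slide in its own scan, so for every difference below the slide and the genotype cannot be told apart. The mutant arrays were brighter before scaling, with a 75th percentile signal of 928 to 1124 against 680 to 790 in wild type. More Kcn probes stood well above background on them, 94 to 103 of 123 against 80 to 84. Over all genes, dim probes leaned higher in the mutant (median difference 0.55 below a mean level of -5) and bright ones lower (median -0.39 above 2). Among markers of cell types, 10 of 11 Sertoli cell, 4 of 7 Leydig cell and 5 of 7 macrophage genes were higher in the mutant. Lower were 5 of 8 spermatocyte and 4 of 5 round spermatid genes. Of all tested genes, 21.7% were higher and 12.4% lower, so marker counts near these shares are no result about a cell type. Averaged over the list, Sertoli genes stood at 1.50 to 2.10 in mutant arrays against 0.76 to 1.14 in wild type, macrophage genes at -0.50 to 0.54 against -0.85 to -0.55, and round spermatid genes at 3.65 to 4.21 against 4.40 to 4.68. Under quantile normalization as under cyclic loess, 1 of 8 spermatocyte and 0 of 5 round spermatid genes were still lower. Leaving out 1 array moved several counts. Leydig genes called higher were 1 of 7 without mutant replicate 1 or 3 or wild-type replicate 2 or 3, and 2 without mutant replicate 4. Macrophage genes were 1 of 7 without mutant replicate 1 or 4 or wild-type replicate 2, and 2 without mutant or wild-type replicate 3. Spermatocyte genes called lower were 2 of 8 without mutant replicate 1, while the Sertoli count stayed at 9 to 11 of 11 and the round spermatid count at 3 to 5 of 5. With median scaling, 2 of 7 Leydig and 2 of 7 macrophage genes were higher. Of the other lists, 2 of 6 endothelial, 2 of 7 neuron and glia, 1 of 4 erythroid and 3 of 5 epididymal genes were higher, 3 of 6 spermatogonial genes were higher and 1 lower, 1 of 7 elongating spermatid genes was lower, and 0 of 6 smooth muscle genes passed in limma, with 0 at an unadjusted p under 0.05. In the fits that left out 1 array, 1 to 2 endothelial, 1 to 4 neuron and glia, 0 to 3 erythroid and 1 to 3 epididymal genes were higher, the last of these 1 without mutant replicate 1 or 4 or wild-type replicate 2 or 3. Epididymal genes averaged -0.27 and -0.44 in mutant replicates 1 and 4, -2.42 and -2.86 in mutant replicates 2 and 3, and -3.66 to -3.37 in wild type. The part of these differences in the channel genes' values was not tested, and in whole-tissue RNA fewer cells of a type and less RNA per cell cannot be told apart.

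Of the 70 tested channel genes, 15 rose, 3 fell and 52 did not pass. The genes that rose were 21.4% of those tested, beside 21.7% of all 23349 tested genes, and those that fell were 4.29%, beside 12.4% of all genes. The share that rose was thus near the background and is no result about potassium channels. The channel genes were dimmer, with a median level of -2.95 beside -1.34 for all tested genes. Over all tested probes, the share lower was 1.31% below a level of -5 and 31.1% above 2. Shares here and for the classes below were not matched for level, and whether the small share that fell goes beyond level was not tested. By plain separation of the arrays, 16 channel genes had every mutant array above every wild-type array, beside 21.9% of all genes, and 5 had every mutant array below, beside 15.4% of all genes. At an unadjusted p under 0.05, 20 were higher and 8 lower. The share of all genes at that threshold was not counted, so no such count in this report has a background beside it. Without mutant replicate 3, 5 were higher (7.46%, beside 12.4% of all genes), and without mutant replicate 4, 7 (10.4%, beside 13.6%). Without wild-type replicate 4, 8 were lower (11.4%, beside 15.2%). The median difference was 0.08 over the 70 channel genes and 0.03 over all tested genes.

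The split between higher and lower genes moved with the scaling between arrays. It was 9 higher and 13 lower with median scaling, 10 and 8 with scaling to the spike-in probes, 8 and 11 with quantile normalization, 7 and 6 with cyclic loess, and 3 and 7 with normexp background correction. The share that fell was below that of all genes with median scaling (18.6% beside 28.1%) and spike-ins (11.4% beside 19.2%), and above it with quantile normalization (15.7% beside 9.79%). Under these settings the median of all genes moved to -0.18 with median scaling, -0.12 with spike-ins and -0.22 with normexp. Relative to that all-gene median, the channel genes' own median was 0.05 with the 75th percentile, the median and the spike-ins, but -0.13 with quantile normalization and with cyclic loess and -0.09 with normexp. Only 4 genes kept their call and direction under all 5 of these scalings: Kcnt1 and Kcnk6, which rose, and Kcnc2 and Kcna7, which fell. Without mutant replicates 1 and 4, no channel gene passed in limma, although 12 were higher and 3 lower at an unadjusted p under 0.05. In that fit, 1.09% of all genes were higher and 0.242% lower. All 14 of the risen genes still tested there lay above 0, and all 3 fallen genes lay below 0.

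**Figure D1:**
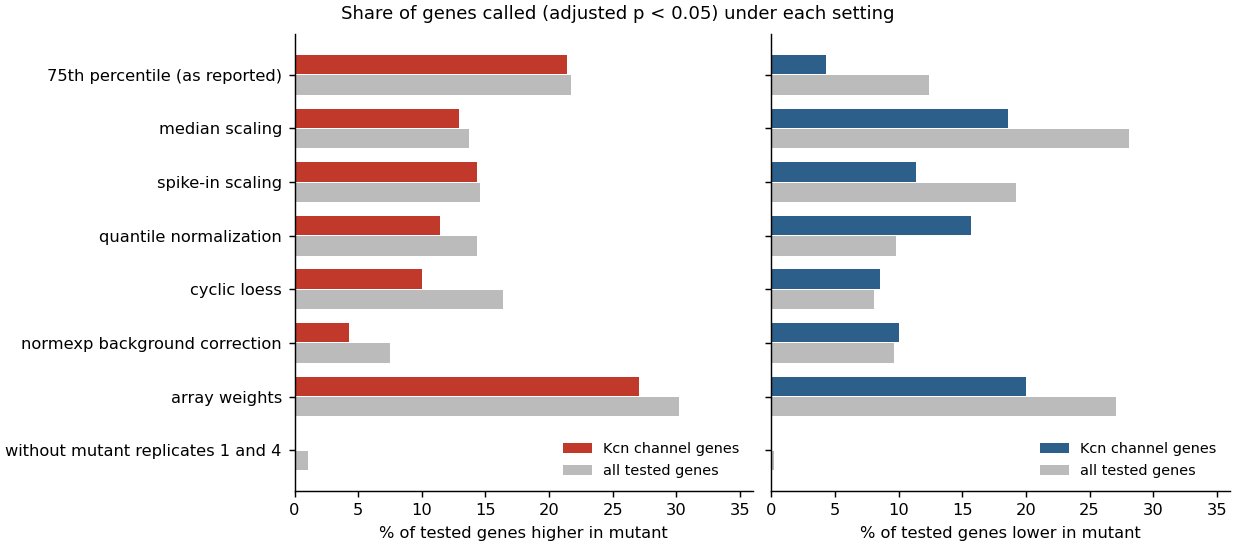
Percent of tested genes called higher (left panel) and lower (right panel) in the mutant at an adjusted p under 0.05, for Kcn channel genes (coloured bars) and all tested genes (grey bars) under each setting. The share of Kcn genes called higher was 21.4% as reported and 4.29% with normexp, and both Kcn bars are at 0 without mutant replicates 1 and 4.

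The array measured several of these genes with more than 1 probe, and the sequences show which stretch each value refers to. Printed below are the last 30 bases, 5′ to 3′, of the 60-base probes of the 4 genes that kept their call under every scaling and of Kcnj9, whose probes disagreed in their call. Capitals mark the letters AATAAA, the usual polyadenylation signal. Positions and strands follow the array files, in mouse build mm7, and whether a probe lies in a coding exon or a UTR is not annotated in the sources used here.
Kcnt1 probe A_52_P78699 (chr2:25923861-25923920, plus strand): tgctgttctgatcagtttctgcatggttct
Kcnt1 probe A_51_P489003 (chr2:25923357-25923416, plus strand): tcatcctgtaatcctgagaccagggatgag
Kcnt1 probe A_52_P581412 (chr2:25899865-25900495, plus strand): cacacagtcagccatgttcaaccaggtgct
Kcnk6 probe A_51_P315890 (chr7:26161668-26161727, minus strand): agcagaactctgtgagtttgaacccttgtc
Kcna7 probe A_51_P149872 (chr7:41586892-41586956, plus strand): tgcttcctcaagttacccagcggtcataga
Kcnc2 probe A_51_P507333 (chr10:111972010-111972069, plus strand): acgtgttcatttagttctggaaggctgtta
Kcnc2 probe A_52_P545132 (chr10:111971930-111971989, plus strand): tgcaaaccgcttatagatcagcgtgtcgac
Kcnc2 probe A_52_P273559 (chr10:111962707-111962766, plus strand): agacagaattgaacatggcttgcaacagta
Kcnj9 probe A_51_P347673 (chr1:172290879-172290938, minus strand): gcaatggaatggagacattgaagctgtcct
Kcnj9 probe A_51_P511285 (chr1:172292266-172292325, minus strand): ggccatggagagacttAATAAAgggtttta

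The intervals of the most upstream Kcnt1 probe and of the Kcna7 probe are longer than 60 bases, as were those of 14 of the 123 Kcn probes, so the probe skips genomic bases inside them. AATAAA was searched on the strand of the probe and as its reverse complement TTTATT, and probes with at least 1 occurrence were counted. It occurred in 11 of 123 Kcn probes (8.94%), beside 4.78% of all 41174 probes, and TTTATT in 2.44% beside 4.25%. Among the 10 probes above, the letters AATAAA were found in 1, the Kcnj9 probe that gave the gene's called difference.

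Of the voltage-gated pore subunits, 22 of 28 genes were tested, 4 rose (18.2%, beside 21.7% of all genes), 2 fell (9.09%, beside 12.4%) and 16 did not pass, and 1 rose without mutant replicate 3 and 2 without mutant replicate 4. The class had a median difference of -0.02, and between -0.34 and -0.16 under the 5 other scalings. Kcnd2 and Kcnd3 form A-type channels, which open and inactivate quickly in nerve and heart muscle. Kcnd3 lay at -2.39, -2.27, -2.31 and -2.22 in the mutant, against -3.28, -2.79, -3.31 and -3.07 in wild type. All mutant arrays were above all wild-type arrays, and the difference was 0.82 ± 0.15 (SE, adjusted p = 0.00525, limma, n = 4 each), a 1.76-fold rise. It kept its call in all 8 fits that left out 1 array and under 4 of the 5 other scalings. Kcnd2 lay at -3.02, -2.95, -2.73 and -2.47 in the mutant, against -4.89, -4.13, -4.0 and -3.12 in wild type. Its difference was 1.25 ± 0.32 (adjusted p = 0.0183), and its second probe, 3.38 kb upstream, also rose, by 0.67 ± 0.16 (adjusted p = 0.0144). The first call was lost without mutant replicate 3 or 4 and held under 3 of the 5 other scalings. Kcnd2 was the only gene with several tested probes of which all passed in 1 direction, although the second probe turned to -0.32 with normexp and stood well above background on 1 wild-type array.

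Kcnc4, a fast channel of the family that lets neurons fire at high rates, lay within -1.11 to -1.05 on the 4 mutant arrays, against -3.07, -3.18, -1.38 and -1.80 in wild type. The groups did not overlap, but the wild-type replicates differed among themselves by more than a log2 unit. The difference of 1.29 ± 0.37 (adjusted p = 0.0276, limma) kept its call in 3 of 8 fits that left out 1 array, those without wild-type replicate 1, 3 or 4. Kcnq5, a subunit of the slow M-type current, rose by 0.62 ± 0.15 (adjusted p = 0.0165), passed under 1 of the 5 other scalings and turned to -0.24 with normexp. Its call was lost without mutant replicate 3.

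The 2 genes of this class that fell did so under every scaling. Kcna7, a member of the Shaker family, lay at -1.98, -1.84, -1.92 and -2.14 in the mutant, against -1.28, -1.39, -1.49 and -1.58 in wild type. The groups did not overlap, the difference was -0.53 ± 0.13 (adjusted p = 0.0162), and the mutant signal was 1.45-fold lower. Kcnc2, a second fast channel of the Kcnc family, lay at -1.76, -1.32, -1.54 and -2.13 in the mutant, against -1.02, -0.92, -0.97 and -0.88 in wild type. This gave a difference of -0.74 ± 0.18 (adjusted p = 0.0144), with every mutant array below every wild-type array.

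Probes of the same gene did not always move together. A second Kcnc2 probe, 80 bases from the first, lay at -1.99, -1.65, -1.74 and -2.33 in the mutant, against -1.54, -1.32, -1.33 and -1.39 in wild type, with a log2 difference of -0.53 ± 0.17 (adjusted p = 0.0370). The probe 9.30 kb upstream of the first lay at -3.24, -2.92, -3.12 and -3.02 in the mutant, against -3.84, -3.34, -4.06 and -3.36 in wild type, and its difference was 0.58 ± 0.19 (adjusted p = 0.0413). The downstream pair thus fell and the upstream probe rose, but the rise passed under none of the 5 other scalings and turned to -0.05 with normexp. Each of these further probes passed in 2 of 8 leave-one-out fits. Over the 19 genes with 2 or 3 tested probes, the probes had 1 sign in 14, and their calls differed in 8. By probe, 19 of 92 were higher and 6 lower, beside 21.2% and 10.8% of all tested probes.

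**Figure D2:**
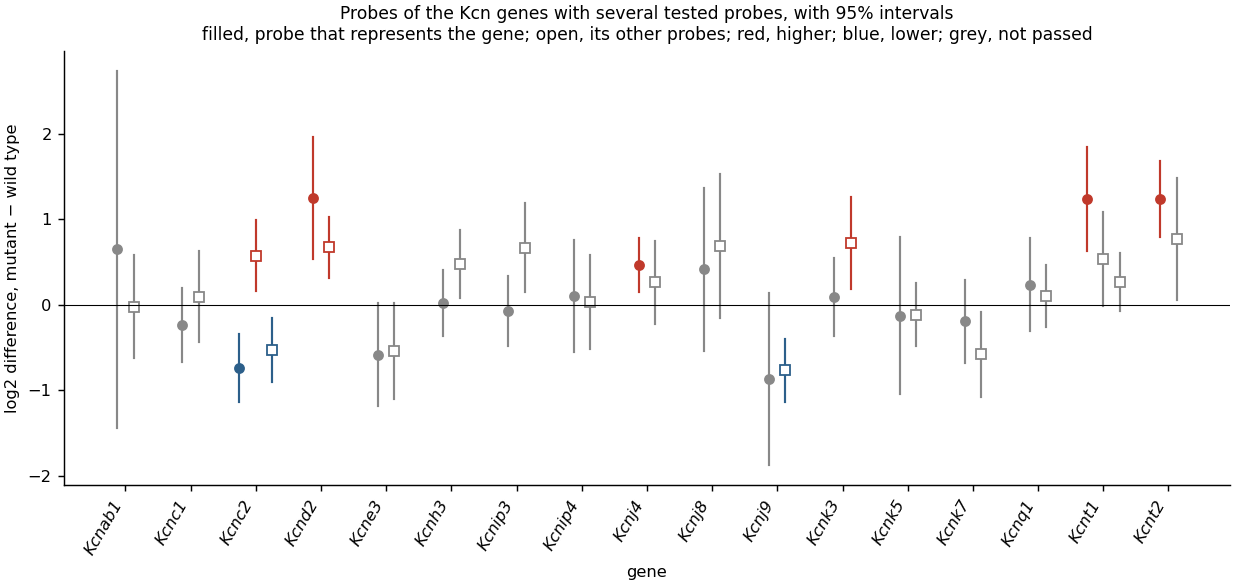
Log2 difference (mutant minus wild type) of each tested probe of 17 of the 19 Kcn genes with several tested probes, with 95% intervals. Filled circles are the probes that represent the gene and open squares its other probes, with red for higher, blue for lower and grey for not passed. The Kcnc2 probes stand on both sides of 0, at -0.74, 0.58 and -0.53.

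Kcnq1, the slow cardiac and epithelial delayed rectifier, did not pass (0.24 ± 0.24, adjusted p = 0.460). Its wild-type arrays spread from -2.0 to -0.83, around the mutant arrays at -1.30 to -1.04. Kcnh2, the rapid delayed rectifier of the heart, was 0.66 ± 0.27 and did not pass (adjusted p = 0.0892). Kcnq3 had the most negative value of the class, -1.46 ± 1.32 (adjusted p = 0.404), with wild-type replicate 1 at 1.30 and the 7 other arrays between -6.12 and -4.87. The other genes of the class given here did not pass either. Among the Shaker family genes, Kcna1, Kcna2 and Kcna4 were -0.05, -0.35 and -0.42 and Kcna3, a channel of T lymphocytes, was 0.26, a gene at background level on every wild-type array. Kcnc1 was -0.24. Of the ether-a-go-go family, Kcnh1, Kcnh3, Kcnh6 and Kcnh8 lay between -0.11 and 0.02, and Kcnh5 was 0.41.

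The silent subunits of the Kcnf, Kcng, Kcns and Kcnv subfamilies form no channel by themselves and change the gating of other voltage-gated subunits. Of 8 such genes 5 were tested and none passed in limma, beside 21.7% higher and 12.4% lower of all genes. At an unadjusted p under 0.05, 0 were higher and 1 lower. Their median difference was 0.25, and between -0.43 and 0.10 under the other scalings. Kcng4 lay at -1.73, -1.51, -1.71 and -1.70 in the mutant, against -1.39, -1.31, -1.41 and -0.77 in wild type. The groups did not overlap, the difference was -0.44 ± 0.17 and the test was not passed (adjusted p = 0.0697), but it was passed, still lower, under 4 of the 5 other scalings. Kcns1 was 0.28 ± 0.17 (adjusted p = 0.213). Kcnf1, Kcng3 and Kcns2 were 0.30, 0.25 and -0.02.

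Auxiliary subunits had 14 tested genes of 15. None rose, 1 fell (7.14%) and 13 did not pass, beside 21.7% higher and 12.4% lower of all genes. The median difference was -0.07, moving between -0.37 and -0.23 under the 5 other scalings. These scalings called 2 to 5 of the auxiliary subunits lower, beside 8.07% to 28.1% of all genes. Without wild-type replicate 4, 4 were lower, and without wild-type replicate 3, 1 was higher. Kcnmb4, an auxiliary subunit that slows the large-conductance calcium-activated channel, lay at 3.38, 3.69, 3.44 and 2.93 in the mutant, against 4.28, 4.14, 4.01 and 4.07 in wild type. Every mutant array was below every wild-type array. The difference was -0.76 ± 0.17 (adjusted p = 0.0116, limma, n = 4 each), a 1.70-fold lower signal, and it kept its call in all 8 fits that left out 1 array and under 3 of the 5 other scalings. Kcnab2, a cytoplasmic subunit of Shaker channels, was -0.40 ± 0.14 with groups that did not overlap, just outside the threshold (adjusted p = 0.0501), and was called lower under 4 of the 5 other scalings. Kcne1, a single-span partner of Kcnq1, was -0.47 ± 0.19 (adjusted p = 0.0857) and was called lower under all 5. The 2 probes of Kcne3, another single-span subunit, gave -0.58 ± 0.27 and -0.54 ± 0.25 (adjusted p = 0.118 and 0.122). Kcnip2, which binds Kcnd channels, was -0.94 ± 0.37 (adjusted p = 0.0782), with wild-type arrays between -0.44 and 1.37. In the other direction, Kcnmb2, a subunit that makes the calcium-activated channel inactivate, lay at -4.02, -3.85, -4.04 and -4.06 in the mutant, against -6.12, -5.02, -4.15 and -4.56 in wild type. Its groups did not overlap, but only 2 wild-type arrays were well above background, and the difference of 0.97 ± 0.35 did not pass (adjusted p = 0.0596) and turned to -0.17 with normexp. By representing probes, Kcnmb2 was the only gene of the class higher at an unadjusted p under 0.05, with 4 lower. The other 8 genes (Kcnab1, Kcnab3, Kcne2, Kcne4, Kcnip1, Kcnip3, Kcnip4 and Kcnmb1) lay between -0.12 and 0.65 by their representing probes. A second Kcnip3 probe was 0.67 ± 0.23 with groups that did not overlap, and did not pass (adjusted p = 0.0520, limma).

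**Figure D3:**
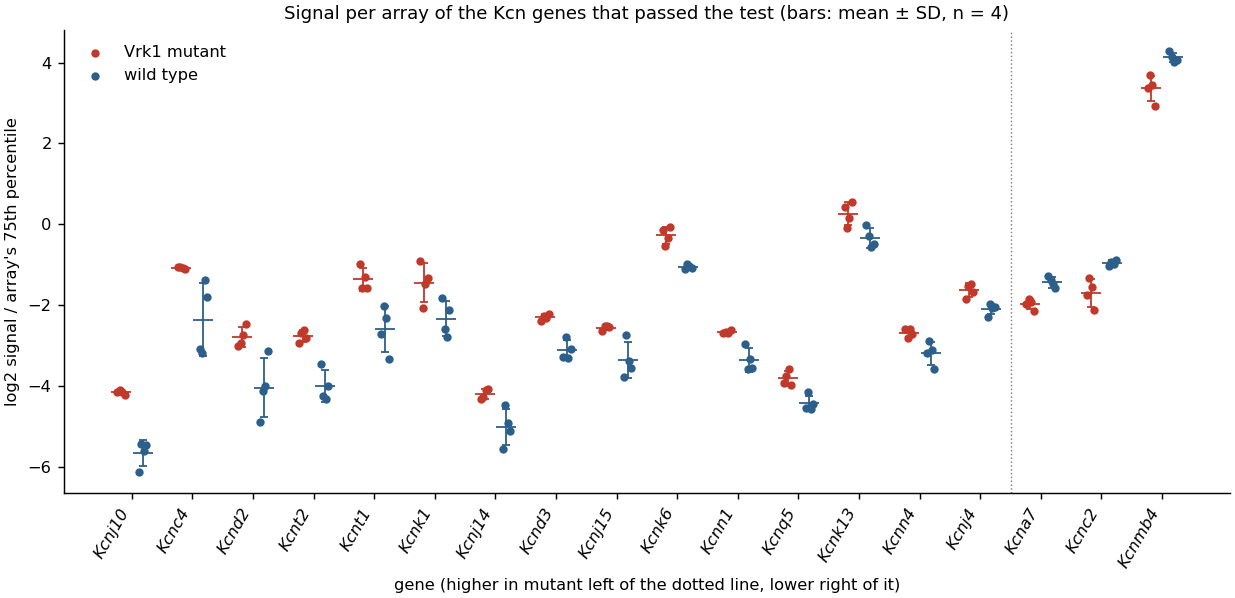
Log2 scaled signal on each array for the 18 Kcn genes that passed the test, mutant in red and wild type in blue, with the mean and SD of 4 arrays. Genes left of the dotted line were higher in the mutant and the 3 right of it were lower. Kcnk1 and Kcnk13 are the 2 genes whose groups overlap.

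The large-conductance, small-conductance and sodium-activated pore subunits (Kcnma, Kcnu, Kcnn and Kcnt) had 8 tested genes of 8, of which 4 rose and none fell, beside 21.7% higher and 12.4% lower of all genes. With median scaling 2 rose and 2 fell, with quantile normalization, cyclic loess or spike-ins 2 rose and 1 fell, and with normexp 1 rose. Their median difference was 0.45 under the main scaling and between -0.06 and 0.29 under the other 5, below 0 with normexp. Kcnt1 and Kcnt2 encode the sodium-activated channels Slack and Slick. Kcnt1 lay at -0.99, -1.58, -1.30 and -1.57 in the mutant, against -2.71, -2.03, -2.31 and -3.33 in wild type. All mutant arrays were higher, by 1.23 ± 0.27 (adjusted p = 0.0104), a 2.35-fold rise. Its call held under all 5 other scalings and in all 8 fits that left out 1 array. The other Kcnt1 probes, 0.504 and 24.0 kb upstream, gave 0.54 ± 0.25 and 0.27 ± 0.15 and did not pass (adjusted p = 0.117 and 0.195).

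Kcnt2 lay at -2.95, -2.70, -2.60 and -2.81 in the mutant, against -3.45, -4.24, -4.33 and -4.0 in wild type. The groups did not overlap, and the rise was 1.24 ± 0.20 (adjusted p = 0.00332), or 2.36-fold, with the call held in all 8 leave-one-out fits and under 4 of the 5 other scalings. A second probe 65.3 kb downstream was 0.77 ± 0.32 and did not pass (adjusted p = 0.0877). Kcnn1 and Kcnn4 encode small- and intermediate-conductance calcium-activated channels. They rose by 0.68 ± 0.16 and 0.51 ± 0.16 (adjusted p = 0.0133 and 0.0410), but under none of the 5 other scalings did either pass. Kcnn4 kept its call in 1 of 8 leave-one-out fits, that without wild-type replicate 2, and Kcnn1 in all 8.

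Kcnu1, the pore of the sperm potassium current, lay at 1.73, 1.61, 1.35 and 1.24 in the mutant, against 2.05, 1.97, 1.93 and 1.59 in wild type. The ranges overlapped, and the difference of -0.40 ± 0.16 did not pass (adjusted p = 0.0826), although it was called lower under 2 of the 5 other scalings. Lrrc52, its leucine-rich auxiliary subunit, was lower, at -0.57 ± 0.18 (adjusted p = 0.0397), with overlapping ranges of the groups. It was called lower under all 5 other scalings, but in 2 of 8 leave-one-out fits, those without mutant replicate 1 or wild-type replicate 4. Kcnma1, the related channel of muscle and nerve, was 0.39 ± 0.15 and did not pass (adjusted p = 0.0755), and with normexp its value was -0.21. Kcnn2 and Kcnn3 were 0.08 and -0.22 (adjusted p = 0.662 and 0.244). At an unadjusted p under 0.05, 5 genes of the class were higher and 1 lower.

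The inward rectifiers, which pass potassium into the cell more easily than out of it, had 12 tested genes of 14, of which 4 rose and none fell, beside 21.7% higher and 12.4% lower of all genes. Their median difference was 0.26, but between -0.25 and 0.11 under the other scalings, which called between 0 and 3 of them higher and up to 1 lower. Without mutant replicate 2, 3 or 4, between 0 and 2 of 11 rose. Kcnj10, the potassium-buffering channel of glia and kidney epithelium, lay at -4.14, -4.09, -4.14 and -4.22 in the mutant, against -6.12, -5.43, -5.60 and -5.46 in wild type. It stood well above background on 4 of 4 mutant and 0 of 4 wild-type arrays. Kcnj10 thus met the filter through the mutant arrays alone, and its entry to the test depended on the mutant signal. Its rise was estimated at 2.84-fold (1.50 ± 0.17, adjusted p = 7.59e-04, limma). With normexp the difference was -0.04. The 2.84-fold value is an estimate and no bound, because wild-type replicate 1 was set to the floor and no wild-type array was well above background.

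Kcnj15, a close relative of Kcnj10, lay at -2.64, -2.51, -2.52 and -2.54 in the mutant, against -3.78, -2.74, -3.37 and -3.55 in wild type. Every mutant array was higher, by 0.81 ± 0.21 (adjusted p = 0.0189), but the call was lost without mutant replicate 3 and held under 2 of the 5 other scalings. Kcnj14, a strong rectifier of motor neurons in rat, rose by 0.82 ± 0.21 (adjusted p = 0.0189), was well above background on 3 of 4 wild-type arrays, and turned to -0.25 with normexp. It lost its call without mutant replicate 3 or 4. Kcnj4, a strong rectifier of the forebrain, rose by 0.47 ± 0.14 (adjusted p = 0.0314), while its second probe was 0.26 ± 0.22 (adjusted p = 0.362). The Kcnj4 call passed under none of the 5 other scalings and in 2 of 8 leave-one-out fits, those without mutant replicate 1 or wild-type replicate 4. Kcnj16, which forms mixed channels with Kcnj10, was 0.32 ± 0.11 with groups that did not overlap and did not pass (adjusted p = 0.0568).

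Kcnj9 encodes a subunit of the channels that G proteins open. Its representing probe lay at 2.82, 2.67, 2.54 and 1.07 in the mutant, against 3.97, 3.29, 3.17 and 2.14 in wild type, and the difference of -0.87 ± 0.45 did not pass (adjusted p = 0.157). The other Kcnj9 probe, 1.39 kb upstream and carrying AATAAA, lay at 1.19, 1.37, 1.26 and 0.69 in the mutant, against 2.00, 1.85, 1.93 and 1.79 in wild type. Here the groups did not overlap, and the probe fell, with a difference of -0.77 ± 0.17 (adjusted p = 0.00996), a call kept under all 5 other scalings. Kcnj11, the pore of the ATP-sensitive channel, was -0.23 ± 0.16 (adjusted p = 0.296), and Kcnj8, an alternative pore of that channel in vessels, was 0.41 ± 0.43 (adjusted p = 0.464). The others, Kcnj1, Kcnj3, Kcnj6 and Kcnj12, lay between -0.21 and 0.21, and no representing probe of the class was lower at an unadjusted p under 0.05, by limma.

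**Figure D4:**
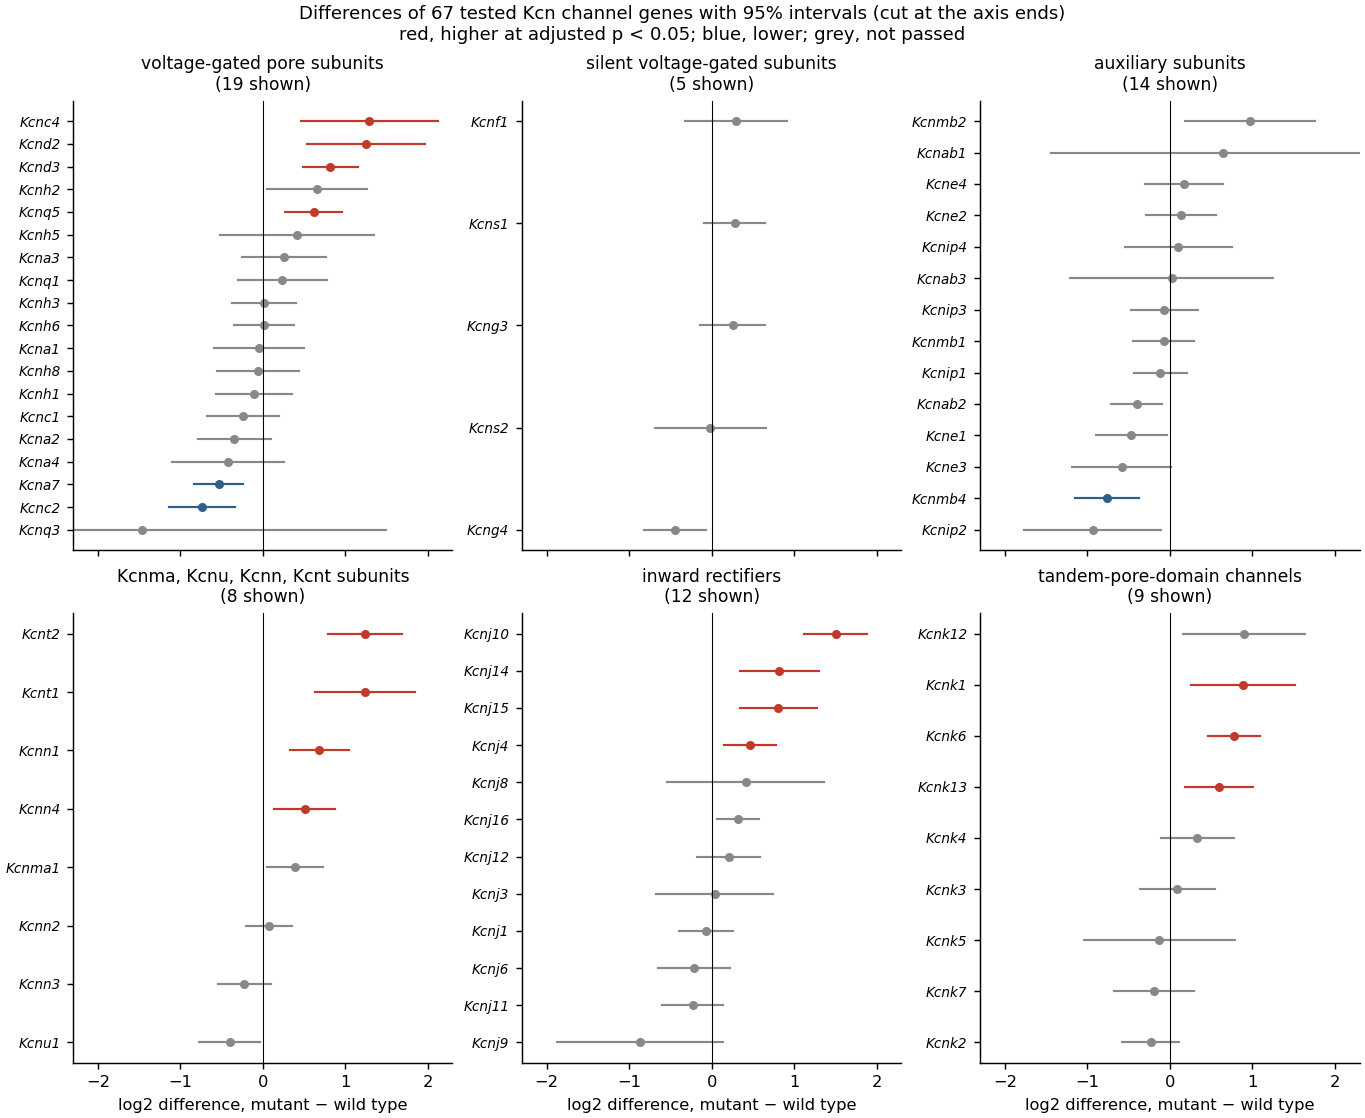
Log2 difference (mutant minus wild type) of 67 of the 70 tested Kcn channel genes by class, with 95% intervals, in red for the 15 higher genes, blue for the 3 lower ones and grey for 49 that did not pass. The values ran from -1.46 for Kcnq3 to 1.50 for Kcnj10.

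The tandem-pore-domain channels carry the background leak of potassium. Of 10 genes 9 were tested, 3 rose and none fell, beside 21.7% higher and 12.4% lower of all genes. The other scalings called 1 or 2 higher, and quantile normalization called 1 lower. Only 1 rose without mutant replicate 1, 3 or 4 or wild-type replicate 2. The median difference was 0.33, and between 0.03 and 0.18 under the other scalings. Kcnk6 lay at -0.15, -0.55, -0.35 and -0.06 in the mutant, against -1.10, -0.99, -1.04 and -1.08 in wild type. The wild-type arrays stood close together and all mutant arrays were above them, by 0.77 ± 0.14 (adjusted p = 0.00523), a 1.71-fold rise. This call held under all 5 other scalings and in all 8 leave-one-out fits. Kcnk1, its closest relative in the family, lay at -0.90, -2.08, -1.47 and -1.32 in the mutant, against -1.83, -2.59, -2.80 and -2.11 in wild type. The ranges overlapped, and the rise of 0.89 ± 0.28 (adjusted p = 0.0378) passed under none of the other scalings and in 3 of 8 leave-one-out fits, those without mutant replicate 2 or wild-type replicate 1 or 4.

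Kcnk13, a channel of microglia in the brain, lay at 0.42, -0.09, 0.16 and 0.54 in the mutant, against -0.01, -0.30, -0.57 and -0.48 in wild type. It rose by 0.60 ± 0.18 with overlapping ranges (adjusted p = 0.0350), and the call held under 2 of the 5 other scalings and in 2 of 8 leave-one-out fits, those without mutant replicate 2 or wild-type replicate 1. Its probe lies on chromosome 12, 6.0 Mb from the Vrk1 probes. Kcnk4 and Kcnk5, a mechanosensitive and an alkali-activated leak channel, were 0.33 ± 0.20 and -0.13 ± 0.41 and did not pass (adjusted p = 0.206 and 0.826). Kcnk3, an acid-sensitive leak channel, was 0.09 ± 0.20 with its representing probe. A second Kcnk3 probe was 0.72 ± 0.24 (adjusted p = 0.0456), a value that rests on 3 wild-type arrays because 1 spot was an outlier, and it passed under none of the other scalings and was lost without any 1 of the mutant replicates. Kcnk12, a relative of Kcnk13, lay at -2.18, -1.96, -2.05 and -2.09 in the mutant, against -3.96, -3.25, -2.24 and -2.44 in wild type. The groups did not overlap, but the wild-type arrays spread widely and 0.90 ± 0.33 did not pass (adjusted p = 0.0607). Kcnk2 and Kcnk7 were -0.23 and -0.19, and by limma no representing probe of the class was lower at an unadjusted p under 0.05. A second Kcnk7 probe was -0.58 ± 0.22 and did not pass (unadjusted p = 0.0262, adjusted p = 0.0693, limma).

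A further tandem-pore channel, Kcnk10, is named 1700024D23Rik on this array and so lay outside the name pattern. Its 2 probes lie 7.57 and 7.49 Mb from the Vrk1 probes. The first lay at -5.61, -5.95, -6.12 and -4.85 in the mutant, against -3.36, -3.04, -2.98 and -4.0 in wild type, a difference of -2.29 ± 0.31 (adjusted p = 0.00167) with groups that did not overlap. It was well above background on 2 of 4 mutant arrays and on all wild-type arrays. The second gave 0.04 ± 0.17 (adjusted p = 0.886).

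The 13 genes left untested included Kcna5, Kcna6, Kcnb2, Kcnd1, Kcnh7, Kcns3, Kcnv1, Kcnv2, Kcne1l, Kcnj2, Kcnj5 and Kcnk16. None stood well above background on more than 3 of the 8 arrays, and for Kcnv1, Kcnv2 and Kcna6 every array was at the floor. Kcna5, a heart and vessel channel, was at the floor on 7 arrays and at 0.89 in wild-type replicate 1, the array on which Kcnq3 also stood apart. Kcnq1ot1 was -0.24 ± 0.26 (adjusted p = 0.483).

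**Figure D5:**
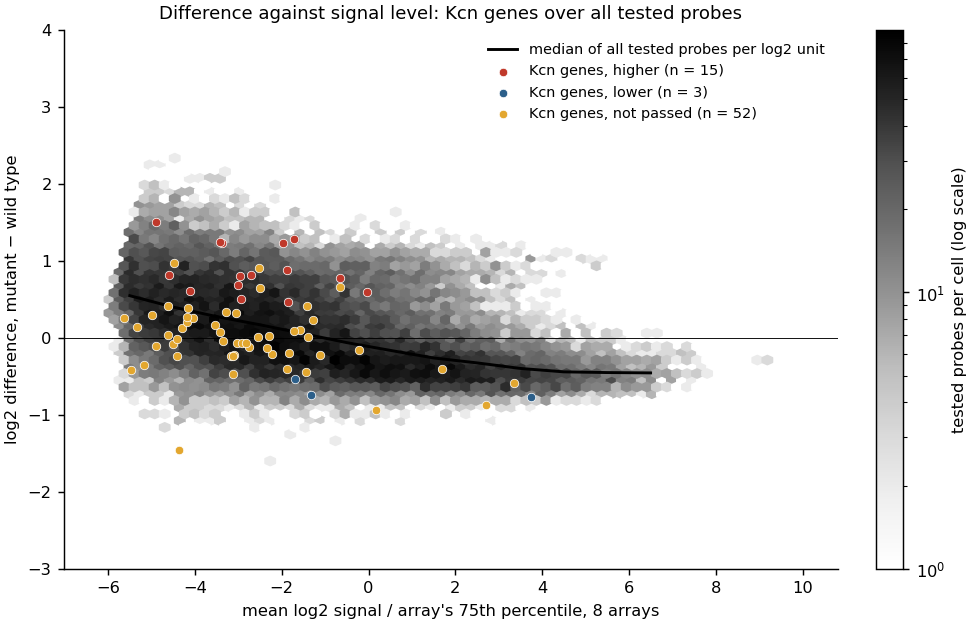
Log2 difference (mutant minus wild type) against the mean log2 signal over 8 arrays, for all 33717 tested probes as grey cells on a log scale of density and for the 70 Kcn genes as points. The line is the median of all tested probes per log2 unit. In wider ranges of level, that median fell from 0.55 below -5 to -0.39 above 2. The Kcn genes that rose stand mostly at low signal, as do the tested Kcn genes as a whole (median level -2.95). Between levels of -5 and -4 the Kcn median was 0.25, beside 0.40 for all tested probes. Between -1 and 0 it was 0.63 over 4 Kcn genes, beside -0.06, and above 2 it was -0.76 over 3, beside -0.39.

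Genes that act beside these channels were taken from a list of auxiliary proteins, other cation channels, pumps and cation-chloride cotransporters. The pumps were the sodium-potassium and proton-potassium pumps, listed with their Fxyd regulators. Of 40 listed genes 34 were tested, 8 rose and 3 fell, beside 21.7% higher and 12.4% lower of all genes, and the median difference was 0.14. The share that rose was near the background. Leaving out 1 array gave 4 higher without mutant replicate 3 or 4, 1 lower without mutant replicate 3 or wild-type replicate 2 and 5 lower without wild-type replicate 4, and median scaling gave 6 higher and 8 lower. Among the pump subunits and Fxyd regulators, 7 of 16 rose and none fell in limma. At an unadjusted p under 0.05, 8 were higher and 1 lower. The count that rose was 4 of 15 without mutant replicate 3 or 4 and 5 or 6 of 16 under the other scalings. Of these scalings, median scaling called 2 lower and quantile normalization, cyclic loess and spike-ins 1 each. The list's median was 0.36, and -0.11 with normexp. The genes that rose included the beta subunits Atp1b1 (0.54 ± 0.14) and Atp1b2 (0.79 ± 0.15), and the regulators Fxyd1, Fxyd3, Fxyd4 and Fxyd6 (0.61 to 1.61). Fxyd4, at background level on all wild-type arrays, met the filter through the mutant arrays alone, and its rise was estimated at 3.05-fold. Fxyd3 and Fxyd4 turned to -0.22 and -0.14 with normexp, while Atp1b2, Fxyd1 and Fxyd6 kept their call under all 5 other scalings. Atp1b2 and Fxyd6 also kept it in all 8 leave-one-out fits, but Fxyd1 in 3 of 8, those without mutant replicate 2 or wild-type replicate 1 or 4. Atp1b1 held under 3 of the 5 other scalings and lost its call without mutant replicate 3 or 4. Besides Lrrc52, Dpp6, an auxiliary subunit of Kcnd channels, fell, at -0.69 ± 0.16 (adjusted p = 0.0119). Of the hyperpolarization-activated channels, Hcn2 fell (-0.50 ± 0.13) and Hcn3 rose (0.53 ± 0.15), with adjusted p-values of 0.0193 and 0.0261. Hcn2 passed under all 5 other scalings and in 5 of 8 leave-one-out fits, failing without mutant replicate 1 or 3 or wild-type replicate 2. Hcn3 passed under none of these scalings and in 4 of 8 such fits, failing without mutant replicate 3 or 4 or wild-type replicate 2 or 3. None of the 7 cotransporters passed in limma, and 2 were higher at an unadjusted p under 0.05. Without wild-type replicate 4, 2 of them were higher and 2 lower.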

How the data were processed

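The 8 one-colour arrays of mouse testis RNA were grouped by the submitters' labels alone. The scanner output came from Agilent Feature Extraction 9.5.3.1, per the submitters' processing notes. The deposited intensity values are background-subtracted and detrended within each array, per the file headers, and were not scaled between arrays. The deposited value table equalled these intensities. Here each array's signal was divided by its 75th percentile, raised to a floor of 0.0144, and converted to log2. Outlier spots were dropped, and 245 probes with 10 spots were averaged. Probes that 4 or more of the 8 arrays showed well above background, with 3 or more values a group, were fitted with limma 3.58.1 in R 4.3.3 (genotype as the only term, two-sided, Benjamini-Hochberg adjustment over 33717 probes, threshold 0.05). The code was tested on simulated data.

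The number of arrays limits the precision, and p-values measure only the spread between these replicates. Members, lists and tests were chosen with earlier results of these data known. Genes given in full were 7 fixed ones, the up to 10 largest rises and falls with groups that did not overlap, in each class the 2 smallest p-values and the brightest gene, and genes with probes of opposite sign. Others named were chosen after their values were seen. All 84 names were current RefSeq symbols (GRCm38.p6). For 19 of the 123 Kcn probes, the transcript record listed for the probe gave no current symbol. Among these were the representing probes of Kcnt2, Kcnj15 and Kcnj9. Alternatives were scaling, background correction, filter, floor, probe choice, array weights, value table, replicate block and arrays left out. Deviations of same-numbered arrays from their group means correlated at 0.279, 0.235, 0.0904 and 0.609 for replicates 1 to 4. Each mutant array matched the wild-type array of its own number best. The labels state no pairing, so the main fit had no replicate block, and whether the numbers pair arrays is not known. Results of a few genes are not reported here, though the counts include them.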

Additional observations from a re-analysis of the deposited data

Results flagged for a closer look

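In 7 of 140 groups of 4 arrays (70 channel genes in each genotype), 1 array stood apart from the others by Dixon's criterion, and chance marks about 1 in 20 groups. Kcnj9 was 1.07 in mutant replicate 4, with the other mutant arrays between 2.54 and 2.82. Kcnj8 was -0.027 in mutant replicate 4, with the others between -1.75 and -1.51. Kcng4 was -1.51 in mutant replicate 2, with the others between -1.73 and -1.70, and -0.77 in wild-type replicate 4, with the others between -1.41 and -1.31. Kcnh3 was -3.02 in mutant replicate 1, with the others between -2.45 and -2.34. Kcne3 was 2.98 in wild-type replicate 4, with the others between 3.80 and 3.93. Kcnq3 was 1.30 in wild-type replicate 1, with the others between -6.12 and -4.87.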

How the results depend on the processing

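The 15 higher and 3 lower channel genes became 9 and 13 with median scaling, 8 and 11 with quantile normalization, 7 and 6 with cyclic loess, 3 and 7 with normexp, and 10 and 8 with spike-in scaling. With array weights 19 genes were higher (27.1%, beside 30.2% of all genes) and 14 lower (20%, beside 27.1%). With the replicate number as a block, 18 genes were higher (25.7%, beside 27.4% of all genes) and 8 lower (11.4%, beside 19.3%). Each mutant array correlated best with the wild-type array of its own number, a hint from the data and not from the design. Leaving out 1 array gave 5 to 15 higher and 3 to 8 lower genes. Higher were 5 without mutant replicate 3, 7 without mutant replicate 4 and 10 without mutant replicate 1, and 8 were lower without wild-type replicate 4. Over the fits that left out 1 array, 12.4% to 22.1% of all genes were higher and 5.1% to 15.2% lower. Without mutant replicates 1 and 4 there were 0 and 0. Of the differences given here that had passed the test, 7 turned sign, each with normexp, namely Kcnj10 (-0.037), Kcnj14 (-0.25), Kcnq5 (-0.24), Fxyd3 (-0.22), Fxyd4 (-0.14) and further probes of Kcnc2 (-0.049) and Kcnd2 (-0.32). Of 49 channel genes that had not passed, 21 turned sign under at least 1 of the 5 scalings and 6 under all 5. The cause was not tested. The other alternatives stayed within 1.5 times of both counts. Over the other gene and probe values, 1497 kept their side of the threshold, 183 lost and 72 gained a call. Dim probes limit single values, as Kcnj10 stood at background level in every wild-type array and met the filter through the mutant arrays alone.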
